A study of Mus musculus with 6 samples.

Results

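Heat shock proteins and their DnaJ partners, the chaperones that fold and refold cellular proteins, were compared between resting CD8+ T cells (CD8-TC) with and without the transcription factor Runx3. A gene was included when its symbol on the array began with Dnaj, or was that of an HSP70, HSP90, HSP60, HSP10, HSP110 or small heat shock protein, or was Hsf1, Hsf2 or Hspbp1. This gave 72 of the 19938 genes that had a probe set of their own, and 52 of the 72 were bright enough to be tested, among 9924 tested genes. The rule used symbols and no expression value, and it was written with earlier results of these data known. RNA of CD8-TC from spleen was hybridized to Affymetrix mouse Gene 1.0 ST arrays, with 1 array per biological repeat. The groups were 3 Runx3-/- and 3 wild-type (WT) arrays, with cells of male mice. All mice were 6 weeks old and of the outbred ICR stock, whose mice differ genetically from one another. Beads carrying anti-CD8 selected the WT cells, and the Runx3-/- cells were in addition sorted by FACS to take out dendritic cells with CD11c and CD8. A further label mentions sorting in every sample. If only Runx3-/- cells were sorted, purification and genotype cannot be told apart here.

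HSP70 chaperones bind unfolded stretches of other proteins and release them through cycles of ATP hydrolysis. DnaJ proteins (HSP40) deliver these clients and trigger the hydrolysis, HSP110 proteins and Hspbp1 act on nucleotide release, and HSP90 takes over clients such as kinases and receptors at a late folding stage. After heat or other protein damage the heat shock factors switch on part of these genes together, whereas the chaperones of the endoplasmic reticulum (ER) answer to the unfolded protein response. In T cells HSP90 is known for keeping the kinase Lck stable.

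The DNA upstream of several of these genes carries the letters that these responses read, and such stretches are shown where they belong to the genes on which the results below turn. They are RefSeq promoter sequences of mouse build GRCm38.p6. The search covered the 250 bases before each gene start on both strands, and 59 of the 72 genes matched the table. The first stretch lies between the head-to-head genes Hspe1 and Hspd1, on the strand of Hspe1 (chr1:55088053-55088082). Its capitals mark 2 overlapping matches to the heat shock element in its 3-unit form, GAANNTTCNNGAA or its reverse complement.

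Hspe1 and Hspd1: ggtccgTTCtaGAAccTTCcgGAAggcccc

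The next stretches come from upstream of ER chaperone genes, each on the strand of its gene. Capitals mark the ER stress response element, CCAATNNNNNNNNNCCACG or its reverse complement. That of Hsp90b1 (chr10:86705513-86705676, minus strand) held 2 matches in opposite orientations, and those of Hspa5 (chr2:34772005-34772063, plus strand) and Dnajc3 (chr14:118937807-118937865, plus strand) held 1 each.

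Hsp90b1: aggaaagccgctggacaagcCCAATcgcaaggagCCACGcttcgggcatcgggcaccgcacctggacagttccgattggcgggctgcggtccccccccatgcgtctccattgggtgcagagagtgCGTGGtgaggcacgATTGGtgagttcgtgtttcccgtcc

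Hspa5: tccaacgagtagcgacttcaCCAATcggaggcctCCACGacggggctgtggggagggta

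Dnajc3: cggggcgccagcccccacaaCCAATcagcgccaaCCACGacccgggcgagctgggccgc

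Across all 27025 genes with a promoter in the table, 0.514% held the 3-unit heat shock element and 0.13% the ER stress response element. Among the 59 matched genes, the heat shock element was found for Hspd1, Hspe1 and Dnajb6, and the ER stress response element for Hsp90b1, Hspa5 and Dnajc3. The RUNX motif was searched in the form TGTGGT, in the form TGTGGC, in the form TGCGGT and in the form TGCGGC. It stood upstream of 30 of the 59 (50.8%) and of 41.3% of all genes. In the ER list used below, Calr, Canx, Creld2 and Pdia6 held the ER stress response element, 4 of 15 matched genes. Such a match is a description of the letters, and binding was not measured on these arrays.

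Between Runx3-/- and WT CD8-TC, 1 of the 52 tested chaperone genes passed the test. The other genes are not thereby shown to be unchanged, since equality of levels was not tested. The gene that passed was Dnajc7, which was 1.30-fold higher in Runx3-/- CD8-TC. The test was limma with Benjamini-Hochberg adjustment over all 9924 genes at a threshold of 0.05, and it called 11.6% of all tested genes (5.63% higher and 6% lower). The methods' cutoffs, 1.5-fold and a p under 0.05, taken here without adjustment, were met by 1 member, Hsph1, against 8.07% of all genes. An unadjusted p under 0.05 was reached by 13 of the 52 (25%), 6 higher and 7 lower, and by 27.7% of all genes, 14% higher and 13.7% lower. The arrays of the genotypes did not overlap for 13 of the 52 (25%), 6 of them higher and 7 lower in Runx3-/-, against 33.6% of all genes, 17.4% higher and 16.2% lower. The 13 include Dnajc6 and Dnajb14, which lay near the array medians. Both passed the filter mainly through the genotype in which they were higher.

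The differences of the 52 genes, Runx3-/- minus WT on the log2 scale, ran between -0.61 for Hsph1 and 0.48 for Dnajc6, with a median of -0.02 beside 0.01 over all tested genes. Their median size without regard to sign was 0.13, beside 0.16 over all genes. Of the 52, 25 (48.1%) lay above 0, as did 51.1% of all genes. The spread between arrays of a genotype was of the same order, since the median SD of these genes was 0.11 among Runx3-/- arrays and 0.11 among WT arrays.

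**Figure D1:**
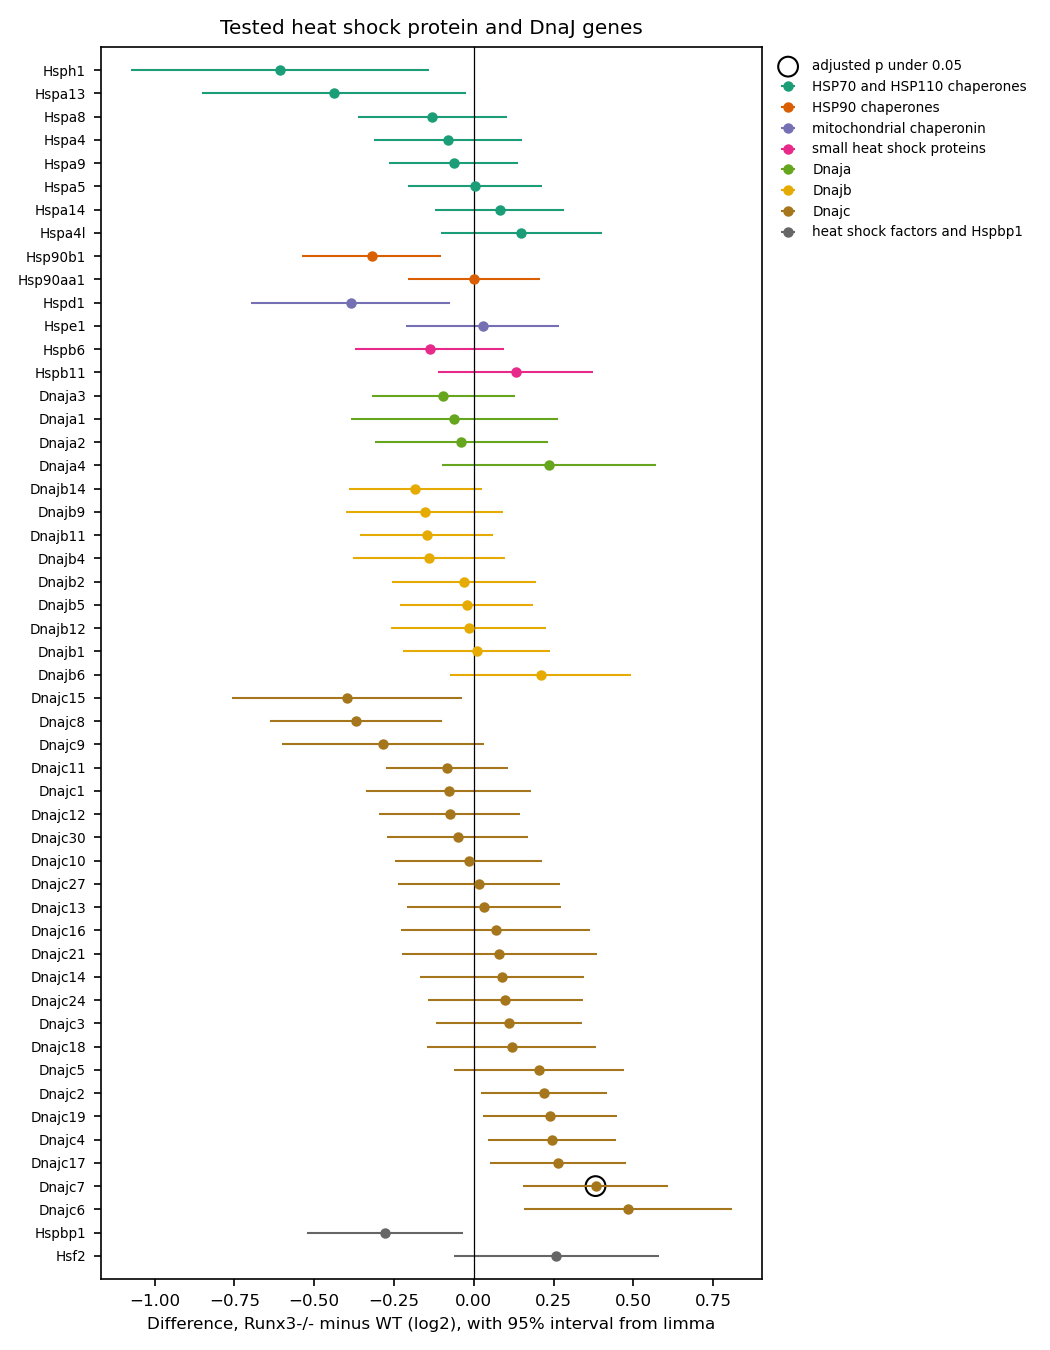
Difference in log2 signal, Runx3-/- minus WT (x axis), for the 52 tested heat shock protein and DnaJ genes (y axis), with bars for limma's 95% interval and colours for the class of each gene. The ring marks Dnajc7, the 1 gene with an adjusted p under 0.05, and the differences run between -0.61 and 0.48.

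Dnajc7, also called Tpr2, is a DnaJ protein with tetratricopeptide repeats that binds both HSP70 and HSP90. Its signal was 8.90, 9.12 and 9.15 in the Runx3-/- arrays, against 8.66, 8.65 and 8.72 in the WT arrays. Each Runx3-/- array lay above each WT array. The difference was 0.38 ± 0.099 (SE, n = 3 each; limma adjusted p = 0.0431). The call lay near the threshold. It was lost without Runx3-/- replicate 2 or 3, without any 1 of the WT arrays, under quantile normalization, without moderation of variances and with the replicate number as a block. Over all 16 alternatives the difference stayed between 0.34 and 0.46 and the limma adjusted p between 0.0246 and 0.128.

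The Dnajc class, the most varied of the DnaJ classes and defined by the J domain alone, held 23 of the 52 tested members. It held 8 of the 13 members with an unadjusted p under 0.05, which 27.7% of all tested genes reached. Of its 23 tested genes, 15 lay above 0, as did 51.1% of all tested genes, and the median difference was 0.08. Dnajc6 (auxilin), which uncoats clathrin vesicles with the help of Hspa8, had 3.70, 4.14 and 3.63 in Runx3-/- arrays, against 3.45, 3.25 and 3.32 in WT arrays. The genotypes did not overlap, but the WT values lay at or below the array medians of 3.45 to 3.53. Signal and background are hard to separate there. Dnajc6 thus passed the filter mainly through its Runx3-/- arrays, so that its non-overlap and difference are not independent of the filter. The difference of 0.48 (95% interval 0.16 to 0.81) did not pass (limma adjusted p = 0.0658).

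Dnajc8, a protein found with the splicing machinery, had 7.59, 7.34 and 7.24 in Runx3-/- arrays, against 7.86, 7.78 and 7.64 in WT arrays. Again no array of one genotype reached the other, here in the lower direction, with a difference of -0.37 (95% interval -0.64 to -0.10; limma adjusted p = 0.0829). Dnajc15, a DnaJ protein of the inner mitochondrial membrane, had 6.68, 6.79 and 6.60 in Runx3-/- arrays, against 7.20, 6.72 and 7.34 in WT arrays. Its WT arrays were spread more widely, and WT replicate 2 lay inside the Runx3-/- range. Its difference of -0.40 had a limma adjusted p of 0.145. Dnajc9, a histone chaperone that also recruits HSP70, had 7.83, 7.62 and 7.77 in Runx3-/- arrays, against 8.18, 8.16 and 7.73 in WT arrays. WT replicate 3 stood apart from the other WT arrays and lay among those of Runx3-/- (difference -0.28, limma adjusted p = 0.224).

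Smaller positive differences, none past the test, came from Dnajc17 (0.27), Dnajc4 (0.24), Dnajc19 (0.24) and Dnajc2 (0.22), for each of which the genotypes did not overlap. Dnajc19 belongs to the motor that draws proteins into the mitochondrial matrix, and Dnajc2 (zuotin in yeast) works at the ribosome on nascent chains. Their limma adjusted p lay between 0.107 and 0.139. Among the cofactors outside the DnaJ family, the nucleotide exchange factor Hspbp1 had 5.62, 5.73 and 5.66 in Runx3-/- arrays, against 6.14, 5.85 and 5.86 in WT arrays. Its groups did not overlap, yet the difference of -0.28 did not pass (limma adjusted p = 0.133). Hsf2, a heat shock factor known from development, had 5.35, 5.62 and 5.08 in Runx3-/- arrays, against 4.999, 5.08 and 5.19 in WT arrays. The genotypes overlapped (difference 0.26, limma adjusted p = 0.277). Hsf1, the main heat-responsive factor, and the cytosolic HSP90 gene Hsp90ab1 had no probe set of a single gene and are not reported.

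**Figure D2:**
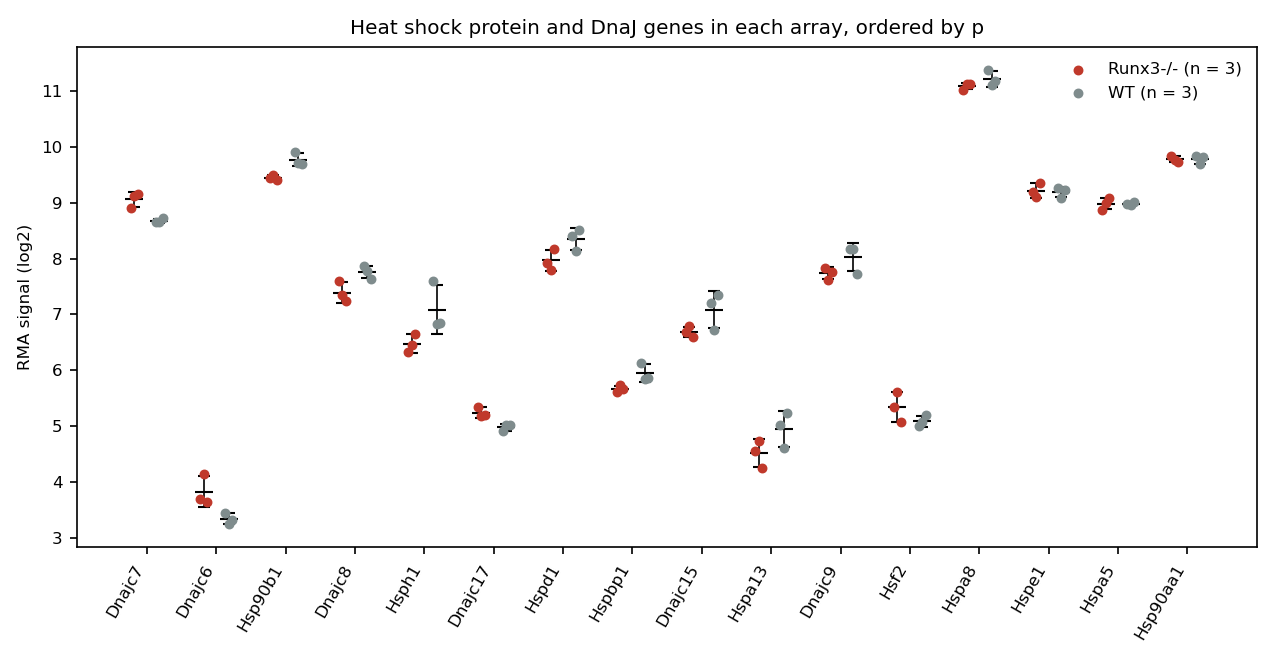
RMA signal (log2, y axis) of 16 chaperone genes (x axis, ordered by p) in each array, with Runx3-/- left in red and WT right in grey, and black bars for the mean ± SD of 3 arrays. Dnajc7, first on the left, has all Runx3-/- arrays above all WT arrays, and Hsph1 has 1 WT array at 7.59 well above the others.

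The Dnaja and Dnajb classes, whose members include the main cytosolic partners of HSP70, had differences between -0.18 and 0.24. None of their 13 tested genes passed the test or had an unadjusted p under 0.05. Dnajb1, the classical heat-inducible HSP40, had 6.63, 6.65 and 6.58 in Runx3-/- arrays, against 6.78, 6.53 and 6.54 in WT arrays. Its difference was 0.01, with a 95% interval of -0.22 to 0.24. Dnaja4 (0.24) had the highest difference of these classes, followed by Dnajb6 (0.21), a suppressor of protein aggregation with a heat shock element upstream, and Dnajb14 (-0.18) had the lowest. The Runx3-/- values of Dnajb14, 3.31, 3.48 and 3.45, lay below or near the array medians. Dnajb14 passed the filter mainly through its WT arrays, so that its difference is not independent of the filter.

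The HSP70 and HSP110 class held the member with the lowest difference, Hsph1, with none of its 8 tested genes past the test. Hsph1 (HSP110), a heat-inducible nucleotide exchange factor and disaggregation partner of HSP70, had 6.33, 6.46 and 6.65 in Runx3-/- arrays, against 7.59, 6.82 and 6.84 in WT arrays. All Runx3-/- arrays lay below all WT arrays, and 1 WT array, replicate 1, lay far above the other WT arrays. The difference of -0.61 (95% interval -1.08 to -0.14; limma adjusted p = 0.0944) shrank to -0.36 without WT replicate 1. Upstream of Hsph1 no 3-unit heat shock element was found, but a 2-unit form, TTCNNGAA, stood in this stretch (chr5:149636342-149636389, minus strand), in capitals. The 2-unit form occurs upstream of 8.11% of all genes.

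Hsph1: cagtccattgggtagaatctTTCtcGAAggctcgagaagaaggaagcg

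Hspa13, an ER-associated HSP70-like ATPase, had 4.56, 4.74 and 4.25 in Runx3-/- arrays, against 5.03, 4.60 and 5.23 in WT arrays. The groups overlapped (difference -0.44, limma adjusted p = 0.158). Hspa8, the constitutive HSP70 of the cytosol, had 11.02, 11.12 and 11.13 in Runx3-/- arrays, against 11.38, 11.11 and 11.17 in WT arrays. Apart from WT replicate 1 these arrays lay within a narrow band, and the difference was -0.13 (95% interval -0.36 to 0.10). The mitochondrial HSP70 Hspa9 differed by -0.06 and the HSP110 relative Hspa4 by -0.08. The strictly stress-inducible Hspa1a lay below the array median in each array.

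In the mitochondrial chaperonin, Hspd1 (HSP60) forms the folding barrel and Hspe1 (HSP10) its lid. Hspd1 had 7.93, 7.80 and 8.18 in Runx3-/- arrays, against 8.41, 8.14 and 8.52 in WT arrays. Hspe1 had 9.19, 9.09 and 9.36 in Runx3-/- arrays, against 9.26, 9.08 and 9.22 in WT arrays. Runx3-/- replicate 3 was thus the highest of its genotype for both genes, and it lay within the WT range for Hspd1 and above all WT arrays for Hspe1. The difference was -0.39 (95% interval -0.70 to -0.07; limma adjusted p = 0.108) for Hspd1 and 0.03 (-0.21 to 0.27; limma adjusted p = 0.895) for Hspe1. The genes start 215 bases apart on opposite strands, around the heat shock elements printed above, and the table gives Hspd1 a further start inside Hspe1. Taken within each array, Hspd1 minus Hspe1 differed by -0.41 in Runx3-/-, and by -0.46 with the probe sets at the locus. The exact two-sided permutation p of 0.1 is the smallest that 3 against 3 arrays allow. This contrast rests on the same values as the differences above and adds no independent support.

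Of the ER chaperones with the stress element, Hsp90b1 was lower, Hspa5 level and Dnajc3 slightly higher in Runx3-/- CD8-TC, with none past the test. Hsp90b1 (GRP94), the HSP90 of the ER that folds integrins and Toll-like receptors, had 9.44, 9.50 and 9.41 in Runx3-/- arrays, against 9.90, 9.71 and 9.70 in WT arrays. The genotypes did not overlap, and the difference of -0.32 (95% interval -0.54 to -0.10) did not pass (limma adjusted p = 0.0674). Hspa5 (BiP), the HSP70 of the same compartment, had 8.88, 9.0 and 9.08 in Runx3-/- arrays, against 8.97, 8.96 and 9.01 in WT arrays. Here the Runx3-/- arrays lay on both sides of the WT arrays, and the difference was 0.00 (95% interval -0.21 to 0.21). Dnajc3 (p58IPK), a DnaJ protein of the ER lumen, had 8.95, 8.88 and 8.70 in Runx3-/- arrays, against 8.80, 8.71 and 8.68 in WT arrays (difference 0.11, limma adjusted p = 0.521). The ER-resident DnaJ genes Dnajb9 (-0.15) and Dnajb11 (-0.15) did not pass the test, and Dnajc10 differed by -0.02.

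Partner genes outside the family were taken from lists of cochaperones, the cytosolic chaperonin, ER folding and mitochondrial chaperone partners, 65 tested genes in all. Of these, 2 rose and 3 fell, 5 of 65 beside 11.6% of all tested genes. Sdf2l1, which works with the ER DnaJ protein Dnajb11, had 5.59, 5.38 and 5.27 in Runx3-/- arrays, against 6.47, 6.08 and 6.46 in WT arrays (difference -0.93 ± 0.14, SE, n = 3 each; limma adjusted p = 0.00433). Atf6, a sensor and transcription factor of the unfolded protein response, had 4.35, 4.66 and 4.14 in Runx3-/- arrays, against 5.06, 5.30 and 5.34 in WT arrays (difference -0.85 ± 0.15, SE, n = 3 each; limma adjusted p = 0.00875). For both genes all Runx3-/- arrays lay below all WT arrays. Ddit3 (CHOP), a transcription factor that is induced late in ER stress, rose by 0.46 (limma adjusted p = 0.0331), so that the 3 changed genes of the 19 in the ER list did not move one way. The Ddit3 call held under 7 of 15 alternatives, and those of Sdf2l1 and Atf6 were lost without moderation of variances only. Of this list 15 genes lay below 0 and 4 above, with a median of -0.12, while 51.1% of all tested genes lay above 0.

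Unc45a, a chaperone of myosin that binds HSP90, had 6.90, 6.93 and 6.89 in Runx3-/- arrays, against 6.44, 6.51 and 6.37 in WT arrays. It rose by 0.47 ± 0.086 (SE, n = 3 each; limma adjusted p = 0.012) and was the 1 called gene among the 23 cochaperones. Grpel1, the nucleotide exchange factor of mitochondrial HSP70, fell by 0.40 (limma adjusted p = 0.0487). It was the 1 called gene of 9 mitochondrial partners, and its call held under 6 of 16 alternatives. Of the 14 genes of the TCP1 ring chaperonin and prefoldin, which fold actin and tubulin, none was called or had an unadjusted p under 0.05. Of these 14, 13 had a difference below 0, with a median of -0.16 and Cct2 as the exception at 0.16. Over all tested genes 51.1% lay above 0. Whether the list moved as a set was not tested.

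On list average, heat-inducible chaperone genes stood highest in 1 WT array, while the other arrays of both genotypes had close means. Over the 16 tested genes of this list, 10 of them members, the mean signal was 7.28, 7.28 and 7.38 in Runx3-/- arrays, against 7.65, 7.31 and 7.41 in WT arrays. WT replicate 1 held the highest value of the 6 arrays for 11 of the 16 (68.8%), that is 5 of the 10 members and all 6 of the others, for 25% of the 52 members and for 19.1% of all tested genes. None of the 16 passed the test. The median difference was -0.10 and became -0.01 without WT replicate 1. The list outside the members included Ahsa1, the activator of the HSP90 ATPase, at 7.49, 7.27 and 7.42 in Runx3-/- arrays and 7.95, 7.68 and 7.68 in WT arrays (difference -0.37, limma adjusted p = 0.0696). Stip1 (HOP), which bridges HSP70 and HSP90, differed by -0.27 and Fkbp4 by -0.26. The other genes of the list outside the members were Ahsa2 (-0.425), Cacybp (-0.03) and Chordc1 (0.02).

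**Figure D3:**
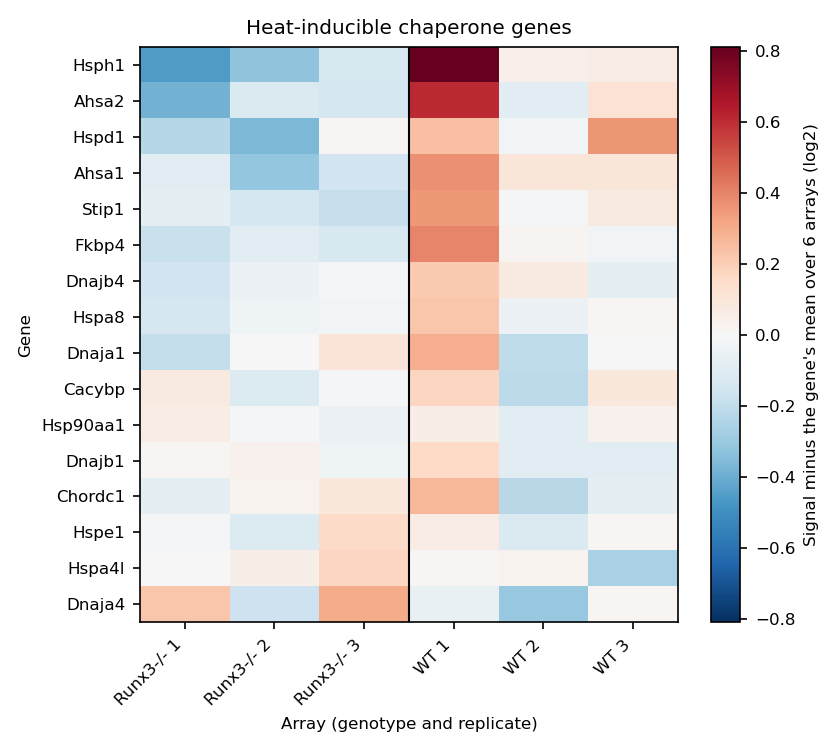
Signal of each array minus the gene's mean over 6 arrays (log2, colour) for the 16 tested heat-inducible chaperone genes (rows, by difference), with the 3 Runx3-/- arrays left of the 3 WT arrays. The WT 1 column holds the highest value in 11 of the 16 rows.

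Several chaperone genes have many processed copies in the mouse genome, and 8 members had more than 1 probe set. For Hspa8, Hspd1, Hsp90aa1, Dnaja1 and Hspb1 the brightest probe set, on which the values above rest, was numbered among probe sets of genes on another chromosome than that of the gene, so that these probe sets may read copies as well as the gene. The Hspa8 probe set numbered with its own chromosome had 9.26, 9.49 and 9.52 in Runx3-/- arrays, against 10.18, 9.41 and 9.56 in WT arrays, with a difference of -0.29. WT replicate 1 again stood apart there. The Hspd1 probe set numbered with chromosome 1 gave a difference of -0.43, close to the -0.39 of the brightest. The 3 probe sets of Hsp90aa1, the inducible cytosolic HSP90, differed by -0.01, 0.00 and 0.02, and the pair of Hspe1 by 0.01 and 0.03. Dnajc3 had 2 probe sets with the same values. Dnajc13, an endosomal DnaJ protein, had 15, whose differences ran between -0.27 and 0.04. Of these, 11 lay below 0, while the brightest, used for the gene, differed by 0.03. In a separate limma fit over the 20041 probe sets that reached the array median, none of the 15 was called. Nor was Dnajc7 called in that fit (limma adjusted p = 0.111).

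**Figure D4:**
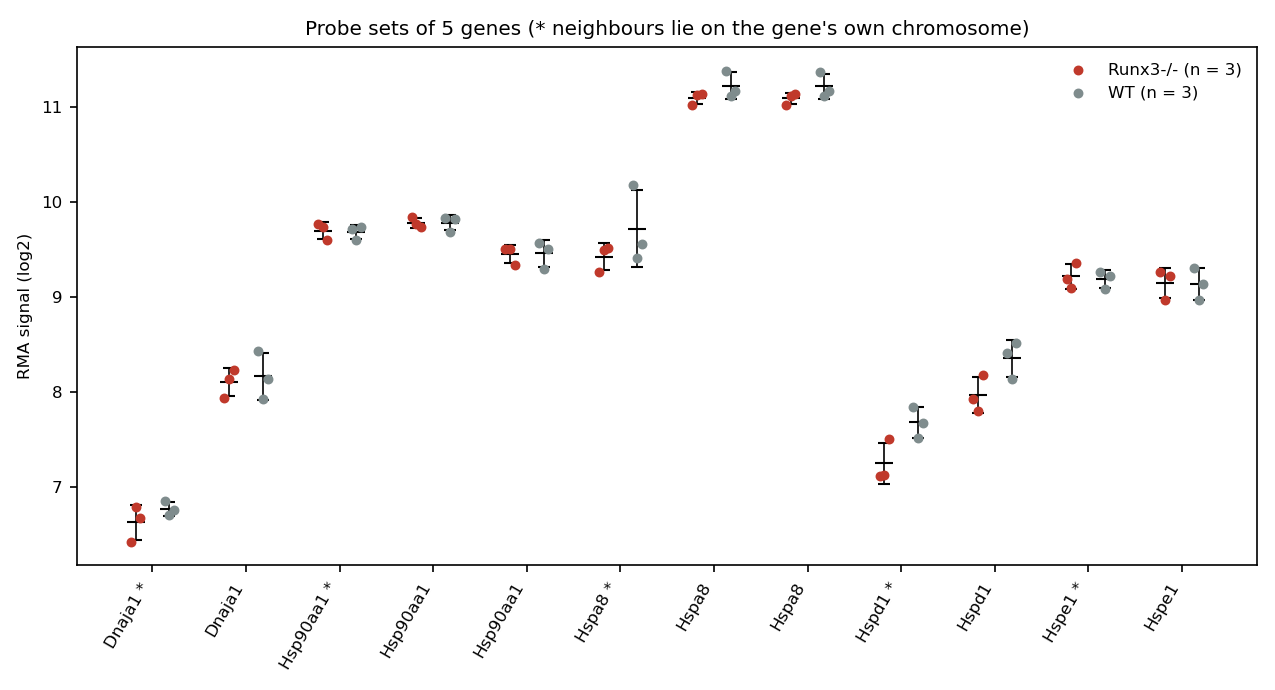
RMA signal (log2, y axis) of each single-gene probe set of Dnaja1, Hsp90aa1, Hspa8, Hspd1 and Hspe1 (x axis), with Runx3-/- left in red and WT right in grey and black bars for the mean ± SD of 3 arrays. An asterisk marks probe sets numbered among genes of the gene's own chromosome, and the Hspa8 probe set of this kind has WT replicate 1 at 10.18.

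The 20 members below the filter stayed between 2.55 and 3.37 in all arrays, under the array medians. They were Hspa1a, Hspa1l, Hspa2, Hspa12a and Hspa12b of the HSP70 class, Hspb1, Hspb2, Hspb3, Hspb7, Hspb8 and Hspb9 of the small heat shock proteins, and Dnajb3, Dnajb7, Dnajb8, Dnajb13, Dnajc5b, Dnajc5g, Dnajc22, Dnajc25 and Dnajc28. Many of these are known from muscle, testis or brain. Of the small heat shock proteins 2 were tested, Hspb6 (-0.14) and Hspb11 (0.13), an intraflagellar transport protein, with neither past the test.

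Several features of the arrays also moved with genotype and may bear on these values. Correlation over the 9924 tested genes was at least 0.985 within a genotype and at most 0.971 between genotypes. All 11 tested B cell markers and all 13 macrophage markers fell in Runx3-/-, with mean levels of 4.14 to 4.35 in Runx3-/- and 6.24 to 6.99 in WT for B cells, and of 4.16 to 4.93 in Runx3-/- and 7.08 to 7.29 in WT for macrophages. Of 8 erythroid markers 7 fell and 1 rose. Slc4a1, Car1, Epb42 and Rhag passed the filter through WT arrays alone, and Gata1, the 1 that rose, through Runx3-/- arrays alone. The B cell marker Ebf1, at 3.10, 2.70 and 2.91 in Runx3-/- arrays, also passed through WT arrays alone. The differences of these genes are not independent of the filter. The Runx3-/- values of the B cell marker Fcer2a lay near the array medians. All 11 dendritic cell markers lay below 0, with a median of -0.88. Of these, 7 had an unadjusted p under 0.05 and 3 passed the test. Of 8 T cell markers 1 rose, Cd247, and the list averaged 9.54 to 9.76 in Runx3-/- and 9.33 to 9.61 in WT. Of 8 immediate early genes, which respond to handling of cells, 2 rose, with list means of 5.93 to 6.08 in Runx3-/- and 5.60 to 5.91 in WT. The part of other cell types and of handling in the chaperone values was not tested, and a smaller number of such cells cannot be told apart from less RNA per cell. The Runx3 probe set itself had 7.06, 7.17 and 7.64 in Runx3-/- arrays, against 7.09, 7.30 and 6.99 in WT arrays (difference 0.16, limma adjusted p = 0.559). Where its probes lie relative to the deletion is not stated, so that it does not check the labels.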

How the data were processed

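The table deposited by the authors held log2 signals of 35399 probe sets. Per the methods they were made by RMA with GC correction in Partek Genomics Suite, while the software versions and the build are not stated. The values were used as they stood for the results reported. GEO's platform annotation paired 21789 probe sets with 1 gene, 1621 with several and 11989 with none, and only the first kind was used. A further 10 probe sets of several genes included a gene of the family and were left out. A gene was represented by its brightest probe set and tested when this reached the array's median (50th percentile) in at least 1 of the 6 arrays. Differences were fitted with limma 3.58.1 in R 4.3.3 (lmFit, eBayes), two-sided, with Benjamini-Hochberg adjustment over all 9924 genes. The p-values set the difference of the genotype means against the spread among 3 and 3 arrays, moderated over all tested genes. The number of arrays limits the precision. The fit was tested on simulated data. Members named are the called gene, the 10 largest differences not called, the 6 brightest, the HSP90 genes, Hsf2 and Hspbp1, and up to 3 genes of lowest p from other lists. Other genes were named after their values were seen. Members and lists were chosen with earlier results of these data known. Lists were described by counts and medians without a set test. Alternatives covered normalization, centring, filter, probe set choice, moderation, array weights, a replicate block and leaving out each array. Promoters and gene names came from RefSeq (GRCm38.p6).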

Additional observations from a re-analysis of the deposited data

How the results depend on the processing

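The counts and medians of the members, the count of pathway genes called and the differences of named genes were recomputed under 16 alternatives (15 for a gene below the stricter filter), and the choice of the probe set numbered with the gene's own chromosome was added after seeing the data. The count of called members, 1 as reported, was 0 under quantile normalization and without moderation of variances, and 2 with centred arrays, with trend and robust moderation and with array weights. Leaving out 1 array gave 0 to 2. Members called higher numbered 0 under quantile normalization, without moderation and with the replicate block, and 2 with centred arrays and with array weights (0 to 1 when leaving out 1 array). Members called lower numbered 1 with trend and robust moderation and 1 with the replicate block (0 to 1 when leaving out 1 array). Members past 1.5-fold numbered 0 without moderation and 0 to 2 when leaving out 1 array. Pathway genes called, 5 as reported, numbered 3 with the filter at the 75th percentile, 1 without moderation and 3 to 6 when leaving out 1 array. Dnajc7 kept its direction under all 16 alternatives and was called under 8. Its adjusted p lay between 0.0246 and 0.128. Hspa5, near 0, turned to -0.0152 under quantile normalization. When leaving out 1 array, the difference ran between -0.0422 and 0.0572 for Hspa5, between -0.0457 and 0.0277 for Hsp90aa1 and between -0.0448 and 0.0884 for Hspe1. Hspa8 moved to -0.29 with the probe set of its own chromosome. The sign held under all alternatives for 38 of the 52 members, and 7 were called under at least 1. The cause of these changes was not tested. Over all genes, 1154 calls as reported became 178 without moderation and between 623 and 924 when leaving out 1 array.

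Deviations of same-numbered arrays correlated at 0.18, 0.03 and 0.00, and 1 of 3 Runx3-/- arrays correlated best with its own number. Replicate numbers thus showed little pairing of the arrays over all tested genes, and pairing in part of the genes was not tested. With the replicate block, Dnajc7 was no longer called (limma adjusted p = 0.0552), Hspd1 was (limma adjusted p = 0.0452), and 1084 genes were called in all. Signals near the array median limit what can be read from Dnajc6, from Dnajb14 and from the members below the filter.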
